A study of Mus musculus with 12 samples.

Results

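The CXCR3 and CXCR6 axes were described here by 7 genes, chosen by symbol from the 55401 genes of the expression table: the CXCR3 ligand genes Cxcl9, Cxcl10 and Cxcl11, the receptor gene Cxcr3, the chemokine gene Ccl5, and the pair Cxcl16 and Cxcr6. All 7 passed the filter of at least 1 FPKM (fragments per transcript length and library size) in at least 3 libraries, which kept 15813 genes. Cxcr3 passed it only through the BF10 and IL-10-Fc libraries, since every Ctrl-IgG and aCSF1R library was below 1 FPKM. The labels describe all groups as tumours that MTC-Q1 oral cancer cells formed in the mouth of C57BL/6 mice. Transcripts given below (Xist, Eif2s3y, H2-Ea, Krt18 and Rhox5) split the groups and go against 1 shared model, so whether sex, strain or cell line was the same in all groups is not known. Mice received a control isotype (IgG1-Fc, here Ctrl-IgG), a CSF1R antibody (aCSF1R), recombinant IL10-Fc protein (IL-10-Fc) or the IL10/CSF1R fusion protein BF10, with 3 libraries per group. Treatment began at a tumour volume of 100 mm3, and the labels give the number of doses as 4 in one place and as 6 in another. BF10 joins human IL-10 to an antibody that blocks the mouse receptor for CSF-1, the growth factor of macrophages. The labels do not say that the libraries of a group came from separate animals, so p-values measure only the spread between these libraries. Age and sex were not given in the labels.

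Chemokines are small secreted proteins that draw cells along a gradient through G protein-coupled receptors. CXCR3 is carried by activated T cells, NK cells and some B cells, and its ligands CXCL9, CXCL10 and CXCL11 are made by macrophages, dendritic cells, stromal cells and tumour cells, classically in response to interferon gamma. CXCL10 is also induced by type I interferon and by NF-kappa B, whereas CXCL9 depends more narrowly on interferon gamma. CCL5 acts through receptors of the CC family and is itself made by effector T cells and NK cells as well as by tumour cells. CXCL16 is made as a membrane protein, is released by the protease ADAM10, and binds CXCR6, a receptor of activated and tissue-resident T cells. The presence of effector T cells in tumours is widely linked to these axes. In whole tumour RNA, a change in the number of cells that carry a transcript and a change in the amount per cell cannot be told apart.

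The 3 CXCR3 ligand genes are neighbours on the minus strand of mouse chromosome 5 (GRCm38), within 44139 bases. Cxcl9 (ENSMUSG00000029417) lies at 92321347 to 92328079, Cxcl10 (ENSMUSG00000034855) at 92346638 to 92348889 and Cxcl11 (ENSMUSG00000060183) at 92359544 to 92365485. The annotation lists Cxcl11 as a polymorphic pseudogene, since the C57BL/6 reference carries a frameshift in it. With that form of the gene, its transcript level says nothing of the protein. Whether all groups carried that form is not known. Cxcr3 (ENSMUSG00000050232) lies on chromosome X at 101731535 to 101734269. Ccl5 (ENSMUSG00000035042) and Cxcl16 (ENSMUSG00000018920) are both on chromosome 11, at 83525778 to 83530518 and at 70453983 to 70459984, and Cxcr6 (ENSMUSG00000048521) is on chromosome 9 at 123806475 to 123811760.

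The 250 bases before the start of Cxcl9 and of Cxcl10 are shown because these neighbouring genes moved in opposite directions in IL-10-Fc, as described below. RefSeq (GRCm38.p6) entries were found for 4 of the 7 genes, Cxcl9, Cxcl10, Cxcr3 and Cxcr6. Both sequences are read 5′ to 3′ along the minus strand, at chr5:92328080-92328329 for Cxcl9 and chr5:92348890-92349139 for Cxcl10. Capitals mark matches to an interferon-stimulated response element (ISRE) core, which is GAAA followed after any 2 bases by another GAAA, or to the kappa B consensus, searched on both strands.
Cxcl9: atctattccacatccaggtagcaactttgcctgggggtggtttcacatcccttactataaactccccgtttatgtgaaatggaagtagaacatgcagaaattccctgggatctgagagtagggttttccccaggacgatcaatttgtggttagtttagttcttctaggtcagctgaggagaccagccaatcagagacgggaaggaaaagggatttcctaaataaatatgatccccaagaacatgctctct
Cxcl10: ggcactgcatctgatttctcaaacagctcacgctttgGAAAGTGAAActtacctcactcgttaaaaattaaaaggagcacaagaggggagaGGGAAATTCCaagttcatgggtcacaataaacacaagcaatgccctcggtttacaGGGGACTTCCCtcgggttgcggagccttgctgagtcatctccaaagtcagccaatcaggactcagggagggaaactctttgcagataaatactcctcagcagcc
The Cxcl10 stretch held 1 ISRE core, from 213 to 204 bases before the start, and 3 kappa B matches, from 159 to 150, from 104 to 95 and from 103 to 94 bases before it. The last 2 matches overlap each other and appear as 1 run of capitals. The Cxcl9, Cxcr3 and Cxcr6 stretches held 0 matches to either, and none of the 4 stretches held the gamma-activated site TTCNNNGAA. Among 32851 mouse promoters of the same length, 2.98% held the ISRE core, 7.25% the kappa B consensus and 7.02% the gamma-activated site. These matches describe letters in the window and not bound sites.

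The libraries fell into 2 sides in genes outside these axes, and this touches every comparison across the sides. Xist was at most 0.04 FPKM in Ctrl-IgG and aCSF1R against 17.1 to 30.7 FPKM in IL-10-Fc and BF10, and the MHC class II gene H2-Ea, which a deletion silences in C57BL/6 mice, was at most 0.27 against at least 552.8 FPKM. The epithelial keratin gene Krt18 was at most 0.09 FPKM in the first 2 groups and at least 293.6 FPKM in the others, and Krt14, a keratin of squamous epithelium, was at most 0.17 FPKM in Ctrl-IgG replicates 1 and 2 and aCSF1R replicate 3. Defining epithelial markers were thus nearly absent from these 3 libraries, although they were labelled as oral cancer. The homeobox gene Rhox5 was at least 574.7 FPKM in the first 2 groups and at most 1.41 FPKM in IL-10-Fc, and 20.6, 0.37 and 111 FPKM in BF10 replicates 1 to 3. BF10 replicate 3 also held the Y-linked transcript Eif2s3y at 3.29 FPKM, which reached at least 4.23 FPKM in Ctrl-IgG and aCSF1R and was listed at 0 in all IL-10-Fc libraries. Treatment and these differences cannot be told apart where IL-10-Fc or BF10 is compared with Ctrl-IgG or aCSF1R. Mitochondrial transcripts took 6.57% to 9.04% of the FPKM sum in 4 libraries (replicate 2 of Ctrl-IgG, replicates 1 and 2 of IL-10-Fc, replicate 1 of BF10) and 2.99% to 3.61% in the other 8. FPKM sums ranged from 637596 to 976950, and FPKM carry no counts, so the depth behind a single value is unknown.

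Cxcl10 was the most abundant member in control tumours and the one that fell furthest. Its level was 591, 678 and 551 FPKM in the Ctrl-IgG libraries and 689.8, 604 and 566 FPKM in the aCSF1R libraries. The IL-10-Fc libraries held 49.2, 29.4 and 41.4 FPKM and the BF10 libraries 56.85, 26.9 and 178 FPKM. All 6 libraries of the IL-10-containing treatments lay below all 6 others, and BF10 replicate 3, the library with Rhox5 and Eif2s3y transcripts, was the highest among them. Mean levels were 15.2-fold lower in IL-10-Fc and 6.96-fold lower in BF10 than in Ctrl-IgG. On the log2(FPKM + 1) scale used for all tests, Cxcl10 fell by 3.91 in IL-10-Fc (SE 0.517, limma adjusted p = 0.000288) and by 3.20 in BF10 (SE 0.517, adjusted p = 0.00132). Without BF10 replicate 3 the BF10 difference was -3.91.

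Cxcl9, the neighbour of Cxcl10, did not follow it. It was 31.4, 62.9 and 55.8 FPKM in Ctrl-IgG, 72.7, 83.9 and 64.1 FPKM after aCSF1R, 245, 197 and 66.6 FPKM in IL-10-Fc, and 112, 51.4 and 70.2 FPKM in BF10. IL-10-Fc replicates 1 and 2 stood above every other library, whereas replicate 3 was within the range of aCSF1R and BF10. Cxcl9 rose in IL-10-Fc against Ctrl-IgG by 1.60 (SE 0.468, adjusted p = 0.0227), and the BF10 difference was 0.61 (adjusted p = 0.393). The call in IL-10-Fc rested on single libraries: the difference was 1.24 (adjusted p = 0.0958) without IL-10-Fc replicate 1, 1.40 (0.0844) without replicate 2, and 1.30 (0.0948) without Ctrl-IgG replicate 1. In the 8 libraries of low mitochondrial share it was 0.66 (adjusted p = 0.175).

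Cxcl11 was the least abundant ligand of CXCR3 in the control tumours. Its levels were 8.77, 12.9 and 8.06 FPKM in Ctrl-IgG, 9.91, 9.46 and 6.90 FPKM after aCSF1R, 148, 96.8 and 31.4 FPKM in IL-10-Fc, and 60.2, 15.5 and 16.1 FPKM in BF10. No library of the IL-10-containing treatments overlapped the control or aCSF1R libraries, although BF10 and Ctrl-IgG overlapped after median-of-ratios scaling, and the 3 with a high mitochondrial share were the highest. Cxcl11 rose 9.27-fold in mean level in IL-10-Fc (log2 difference 2.86, SE 0.589, adjusted p = 0.00385), with a log2 difference of 1.78 (adjusted p = 0.00178) among the libraries of low mitochondrial share, of which 1 was IL-10-Fc. In BF10 the log2 difference was 1.27 (SE 0.589) and was not called (adjusted p = 0.147). It was called in BF10 among the 8 libraries of low mitochondrial share, at 0.84 (adjusted p = 0.00772), where BF10 had 2 libraries.

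**Figure D1:**
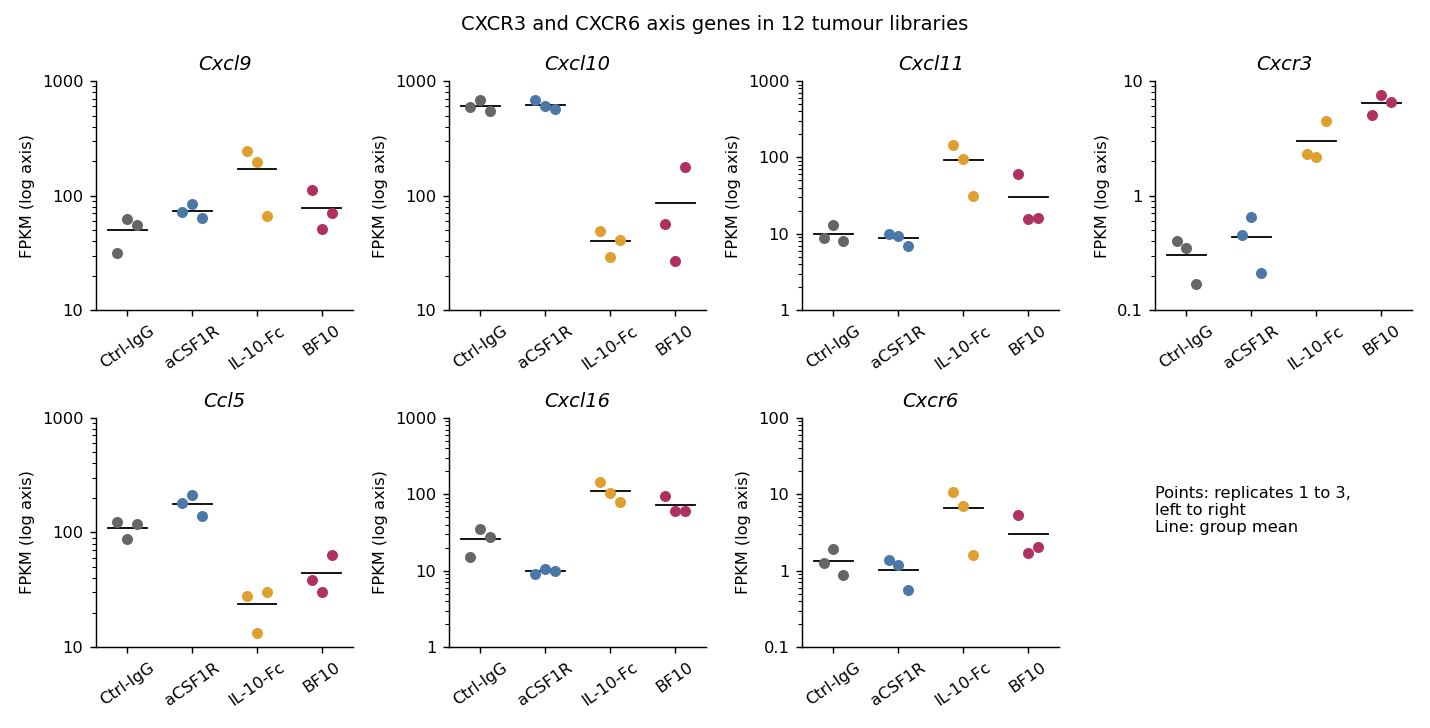
Levels of the 7 genes in 12 tumour libraries, in FPKM on log axes that differ between panels; points are replicates 1 to 3 from left to right within a group and the line is the group mean. Cxcl10 and Ccl5 lie lower after IL-10-Fc and BF10, and Cxcr3, Cxcl11 and Cxcl16 lie higher, with Cxcr3 below 1 FPKM in every Ctrl-IgG and aCSF1R library.

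The make-up of the CXCR3 ligand transcripts differed between the sides. The share of each ligand in the summed FPKM of the 3 does not depend on library scaling. FPKM are per transcript length, so the shares compare transcripts and not reads. Cxcl10 made up 91.1% ± 2.23 of the sum in Ctrl-IgG and 88.3% ± 1.44 in aCSF1R, against 40.3% ± 23.5 in BF10 and 16.7% ± 11.3 in IL-10-Fc (SD, n = 3 each). Cxcl9 made up 7.46% ± 2.18, 10.5% ± 1.36, 43.4% ± 14.9 and 54.7% ± 6.58 in the same order. Cxcl11 made up 1.47% ± 0.214 and 1.24% ± 0.141 in Ctrl-IgG and aCSF1R, and 28.7% ± 5.59 and 16.3% ± 10.1 in IL-10-Fc and BF10.

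The lowest Cxcl10 share on the control side was 86.6% and the highest on the other side 67.3%, in BF10 replicate 3. The other 5 libraries of that side had Cxcl10 shares of 9.12% to 29.7%, and Cxcl9 was the leading ligand in each of them. The summed level of the 3 ligands was 667 ± 76 FPKM for Ctrl-IgG, 702 ± 67.8 FPKM for aCSF1R, 301 ± 152 FPKM for IL-10-Fc and 195 ± 89.8 FPKM for BF10 (SD, n = 3 each). The highest sum in the IL-10-containing treatments, 442 FPKM in IL-10-Fc replicate 1, lay below the lowest on the control side, 615 FPKM in Ctrl-IgG replicate 3. Unlike the shares, these sums depend on library scaling. The median-of-ratios size factors of these libraries were 0.708 and 1.21, and division by them reverses their order.

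**Figure D2:**
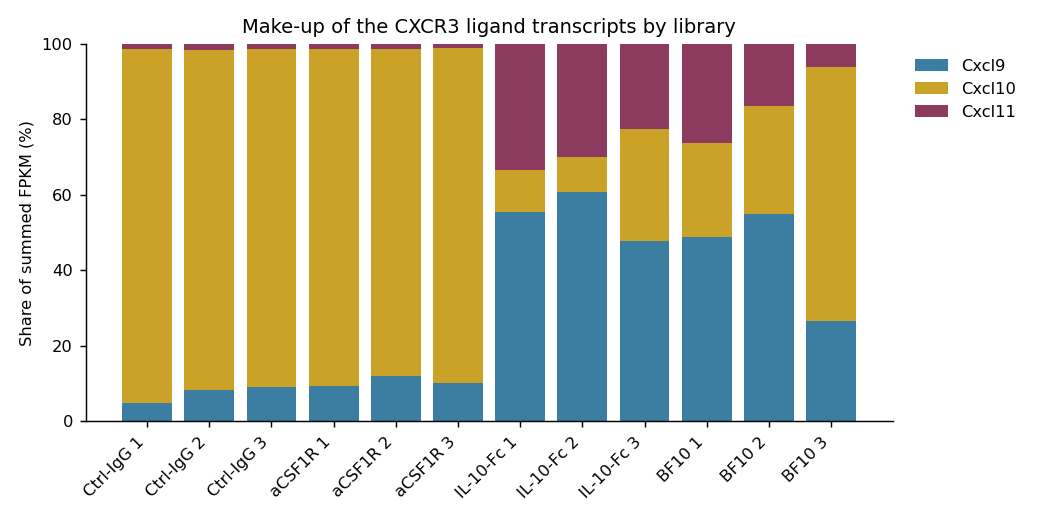
Share of Cxcl9, Cxcl10 and Cxcl11 in their summed FPKM, in percent, for each of the 12 libraries. Cxcl10 takes 86.6% to 93.6% after Ctrl-IgG or aCSF1R and 9.12% to 67.3% after IL-10-Fc or BF10, with the 67.3% in BF10 replicate 3.

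Cxcr3, the receptor of these ligands, was higher in every library of the IL-10-containing treatments. It was 0.40, 0.35 and 0.17 FPKM in Ctrl-IgG, 0.45, 0.65 and 0.21 FPKM after aCSF1R, 2.33, 2.18 and 4.44 FPKM in IL-10-Fc, and 5.06, 7.63 and 6.51 FPKM in BF10. The 4 groups were ordered aCSF1R and Ctrl-IgG, which overlapped, then IL-10-Fc, then BF10, with no overlap between the last 2. Cxcr3 rose by 2.49 in BF10 (SE 0.252, adjusted p = 8.47e-05) and by 1.57 in IL-10-Fc (SE 0.252, adjusted p = 0.000938) against Ctrl-IgG. Mean levels were 20.9-fold and 9.73-fold those of Ctrl-IgG, folds that rest on a control level under 1 FPKM. With a pseudocount of 0.1 in place of 1, the log2 differences were 4.03 and 2.90. BF10 exceeded IL-10-Fc by 0.92 (SE 0.252), a difference that did not pass the correction over all genes (unadjusted p = 0.00377, adjusted p = 0.478).

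T cell transcripts were set beside Cxcr3 because T cells are its main carriers. The summed level of 12 T cell genes (Cd3d, Cd3e, Cd3g, Cd247, Cd2, Cd5, Cd6, Lck, Cd28, Cd4, Cd8a and Cd8b1) was 23.5 to 30.9 FPKM in Ctrl-IgG, 23.9 to 30.9 FPKM in aCSF1R and 22.7 to 30.6 FPKM in IL-10-Fc, with none at 0 throughout a group. In BF10 it was 35.6, 91.0 and 75.2 FPKM. Among the 10 T cell genes tested, Cd3g (log2 difference 1.3, adjusted p = 0.00578) and Cd8a (1.06, adjusted p = 0.0342) were called higher in BF10 against Ctrl-IgG (11.8% of all genes), and 0 in IL-10-Fc (10.1%). The median over the 10 was 0.99 in BF10 and -0.24 in IL-10-Fc, beside -0.12 and -0.39 over all genes.

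Relative to the mean log2(FPKM + 1) of the T cell genes, Cxcr3 stood at -1.12 ± 0.177 in Ctrl-IgG and -1.08 ± 0.0821 in aCSF1R, against 0.45 ± 0.488 in BF10 and 0.59 ± 0.417 in IL-10-Fc (SD, n = 3 each). The lowest value in the IL-10-containing treatments, 0.15, was above the highest on the other side, -0.92. Measured against the 3 Cd3 genes alone the difference from Ctrl-IgG was 1.48 in IL-10-Fc and 1.41 in BF10. Cxcr3 was thus higher in IL-10-Fc beside T cell sums close to those of Ctrl-IgG, and in BF10 both were higher. B and plasma cell genes summed to 3.01 to 53.3 FPKM in IL-10-Fc and 20.1 to 306 FPKM in BF10. Their sums were 2.49 to 4.63 FPKM in Ctrl-IgG and 3.84 to 5.21 FPKM in aCSF1R. NK cell genes, given below, did not sum higher in IL-10-Fc or BF10 than in Ctrl-IgG. The part of B and NK cells in the Cxcr3 difference was not tested.

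**Figure D3:**
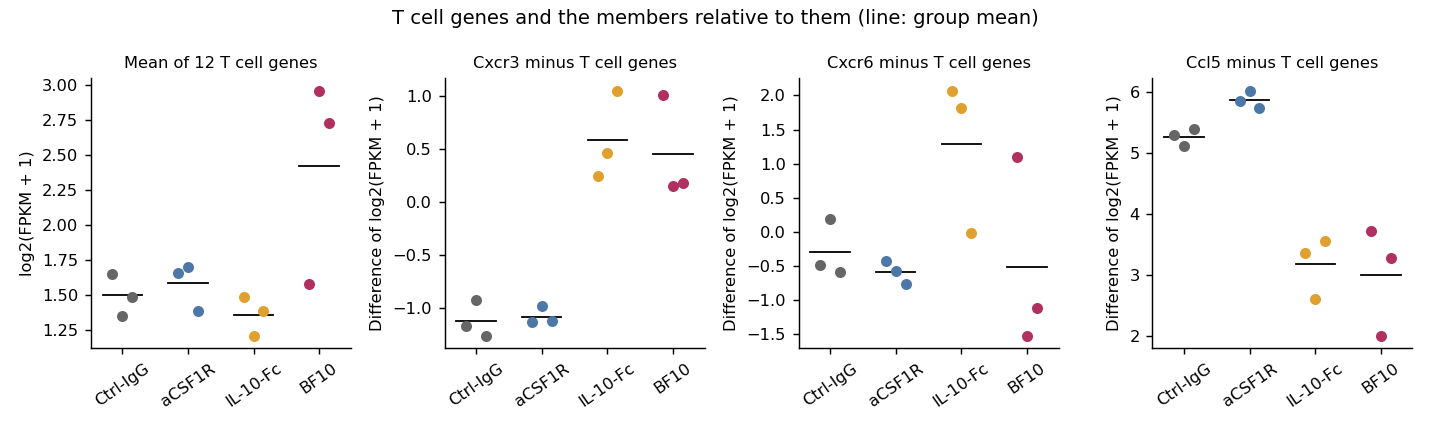
Mean log2(FPKM + 1) of the 12 T cell genes (left panel) and log2(FPKM + 1) of Cxcr3, Cxcr6 and Ccl5 minus that mean, for each library by group; points are libraries and lines are group means. Cxcr3 lies between -1.26 and -0.92 in Ctrl-IgG and aCSF1R and between 0.15 and 1.05 in IL-10-Fc and BF10, whereas Cxcr6 in BF10 spreads from -1.52 to 1.10.

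Ccl5 was the second most abundant member in control tumours and fell with Cxcl10. It was 123, 87.2 and 118 FPKM in Ctrl-IgG, 182, 211 and 139 FPKM after aCSF1R, 28.0, 13.1 and 30.05 FPKM in IL-10-Fc, and 38.5, 30.3 and 63.8 FPKM in BF10. All libraries of the IL-10-containing treatments were below all others, and all aCSF1R libraries were above all Ctrl-IgG libraries. Ccl5 fell by 2.22 in IL-10-Fc (SE 0.354, adjusted p = 0.0009) and by 1.34 in BF10 (SE 0.354, adjusted p = 0.0178) against Ctrl-IgG, or 4.60-fold and 2.47-fold in mean level. The BF10 call was lost at -1.11 (adjusted p = 0.0795) without BF10 replicate 2, at -1.25 (0.0662) without Ctrl-IgG replicate 1, at -1.28 (0.0527) without Ctrl-IgG replicate 3 and at -1.31 (0.0587) with FPKM rescaled to a common sum. Relative to the T cell genes, Ccl5 stood at 5.27 ± 0.148 in Ctrl-IgG and 5.87 ± 0.146 in aCSF1R, and at 3.01 ± 0.887 in BF10 and 3.18 ± 0.501 in IL-10-Fc.

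NK cells also make CCL5. The summed level of 7 NK cell genes was 83.4 to 225 FPKM in Ctrl-IgG, 76.3 to 90.6 FPKM in aCSF1R, 10.3 to 39.7 FPKM in IL-10-Fc and 15.2 to 34.4 FPKM in BF10. The Ly49 receptor genes Klra4 and Klra8 were the 2 of 7 called lower in IL-10-Fc (23.6% of all genes) and in BF10 (13.2%). Klra genes vary between mouse strains, and Klra8, listed at 0 in every IL-10-Fc library, passed the filter only through the Ctrl-IgG and aCSF1R libraries. Without Klra4 and Klra8 the other 5 genes, none of them called, summed to 21.1 to 71.6 FPKM in Ctrl-IgG, 32.3 to 33.5 FPKM in aCSF1R, 10.2 to 39.7 FPKM in IL-10-Fc and 15.2 to 24.9 FPKM in BF10, so that the 2 sides overlapped. The part of NK cells in the Ccl5 difference was not tested.

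Cxcl16 rose in IL-10-Fc and BF10, and its levels in aCSF1R lay below those in Ctrl-IgG without passing the test. It was 14.98, 34.7 and 27.4 FPKM in Ctrl-IgG, 8.97, 10.6 and 10 FPKM after aCSF1R, 145, 105 and 79.3 FPKM in IL-10-Fc, and 95.5, 60.3 and 60.4 FPKM in BF10. The aCSF1R libraries lay below all others, the Ctrl-IgG libraries in between, and those of BF10 and IL-10-Fc above and overlapping each other. Cxcl16 rose by 2.09 in IL-10-Fc (SE 0.329, adjusted p = 0.000846) and by 1.5 in BF10 (SE 0.329, adjusted p = 0.00698). In aCSF1R the log2 difference was -1.22 (SE 0.329, unadjusted p = 0.00348), which did not pass the correction over all genes (adjusted p = 0.958).

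Macrophages are a main source of CXCL16. The summed level of 8 macrophage genes was 417 to 778 FPKM in Ctrl-IgG, 246 to 274 FPKM in aCSF1R, 815 to 1247 FPKM in IL-10-Fc and 1032 to 1164 FPKM in BF10. The complement genes C1qa, C1qb and C1qc made up most of these sums. Of the 8, 3 were called higher in BF10 (11.8% of all genes) and 3 in IL-10-Fc (10.1%) against Ctrl-IgG, in both cases C1qa, C1qc and Mrc1, and 0 in aCSF1R (0%). None of the 8 was called lower in these 3 comparisons. C1qb, Adgre1, Itgam and Cd68 did not share the order of the sums in IL-10-Fc, with log2 differences of 0.00536, -0.14, -0.27 and -0.75. Csf1r differed by 0.79 there. In BF10 the log2 difference was 0.467 for C1qb, 0.255 for Adgre1, 0.991 for Itgam, 0.0982 for Cd68 and 1.79 for Csf1r. For the same genes in turn it was -1.28, -1.02, -0.349, -0.161 and -0.532 in aCSF1R. None of these differences was called. The list median was 1.06 in BF10 and 0.40 in IL-10-Fc. Neutrophil genes also summed higher, at 995 to 4501 FPKM in IL-10-Fc and 494 to 1646 FPKM in BF10 against 178 to 336 FPKM in aCSF1R and 29.99 to 308 FPKM in Ctrl-IgG. S100a8 and S100a9 made up most of these sums. Of 5 tested, 3 were called higher in IL-10-Fc (10.1% of all genes) and 3 in BF10 (11.8%). Csf3r (0.317 and 0.851) and Cxcr2 (0.692 and 1.00) were called in neither. The part of macrophages and neutrophils in the Cxcl16 difference was not tested.

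Cxcr6, the receptor of CXCL16, varied widely among the libraries of IL-10-Fc and of BF10. It was 1.26, 1.92 and 0.88 FPKM in Ctrl-IgG, 1.36, 1.19 and 0.55 FPKM after aCSF1R, 10.8, 7.06 and 1.61 FPKM in IL-10-Fc, and 5.41, 1.70 and 2.05 FPKM in BF10. The highest values were those of replicates 1 and 2 of IL-10-Fc and replicate 1 of BF10, the 3 libraries of that side with a high mitochondrial share, and the other 3 were at or near the level of the top control library. The log2 difference from Ctrl-IgG was 1.44 in IL-10-Fc (SE 0.515, adjusted p = 0.0509) and 0.70 in BF10 (SE 0.515, adjusted p = 0.376). Without IL-10-Fc replicate 3 the former was 2.08 (adjusted p = 0.00213), and in the 8 libraries of low mitochondrial share it was 0.34 (adjusted p = 0.386). Relative to the T cell genes, Cxcr6 stood at 1.29 ± 1.13 in IL-10-Fc and -0.51 ± 1.41 in BF10, against -0.59 ± 0.168 in aCSF1R and -0.29 ± 0.419 in Ctrl-IgG (SD, n = 3 each). The IL-10-Fc libraries lay above all aCSF1R libraries and overlapped those of Ctrl-IgG and BF10, and BF10 overlapped all other groups.

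Counted over the 7 genes, BF10 against Ctrl-IgG had 4 called, meaning a fold of 1.5 or more with an adjusted p below 0.05, against 24.9% of all genes tested. Cxcr3 and Cxcl16 were called higher (11.8% of all genes) and Cxcl10 and Ccl5 lower (13.2%). These 4 were also the members with an unadjusted p below 0.05 (36.3% of all genes). Cxcr3 passed the filter only through the IL-10-Fc and BF10 libraries, so its calls against Ctrl-IgG or aCSF1R add no independent support. IL-10-Fc against Ctrl-IgG had 6 called, against 33.7% of all genes. Cxcl9, Cxcl11, Cxcr3 and Cxcl16 were higher (10.1%), Cxcl10 and Ccl5 lower (23.6%), and Cxcr6 was not called, although all 7 had an unadjusted p below 0.05 (45.2%). The median log2 difference over the 7 was 0.70 in BF10 and 1.57 in IL-10-Fc, beside -0.12 and -0.39 over all genes. Median-of-ratios scaling moved the IL-10-Fc median of all genes to -0.00353 and its split from 1597 higher and 3729 lower to 2534 and 2679, and the 6 members kept their calls and directions under it. In BF10, 5 of the 7 genes had groups that did not overlap (38.4% of all genes), and in IL-10-Fc 6 of 7 (37.3%). Median-of-ratios scaling left 4 in BF10, where Cxcl11 then overlapped, and 5 in IL-10-Fc, where Cxcl9 did. These 2 comparisons share the Ctrl-IgG libraries.

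aCSF1R against Ctrl-IgG, which stays on 1 side, had 0 of the 7 called, as it had 0 of all genes (0%). At an unadjusted p under 0.05 there was 1 member, Cxcl16, beside 437 of all genes (2.76%). Groups did not overlap for Cxcl9, Ccl5 and Cxcl16 (14.9% of all genes), and for Ccl5 and Cxcl16 alone after median-of-ratios scaling. The log2 difference was 0.69 for Ccl5 (SE 0.354, unadjusted p = 0.0788), 0.60 for Cxcl9 and 0.03 for Cxcl10. The median over the 7 was 0.03, beside 0.11 over all genes.

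BF10 against IL-10-Fc, the other comparison on 1 side, also had 0 of the 7 called, with 2 of all genes (0.0126%). Cxcr3 and Ccl5 were higher in every BF10 library than in every IL-10-Fc library (5.18% of all genes). The log2 differences with an unadjusted p under 0.05 were those of Cxcr3, Cxcl11 (-1.59, SE 0.589, unadjusted p = 0.0208) and Ccl5 (0.88, SE 0.354, unadjusted p = 0.0299), beside 5.24% of all genes. The median over the 7 was -0.59, beside 0.34 over all genes, which median-of-ratios scaling moved to 0.03. That scaling left only Cxcr3 without overlap. The Cxcl10 difference of 0.72 was -0.00043 without BF10 replicate 3.

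BF10 against aCSF1R had 4 of the 7 called, against 25% of all genes (11% higher and 14% lower). Cxcl10 fell by 3.23 (adjusted p = 0.00125) and Ccl5 by 2.03 (adjusted p = 0.002), while Cxcl16 rose by 2.72 (adjusted p = 0.000263) and Cxcr3 by 2.36 (adjusted p = 0.000122). An unadjusted p below 0.05 was reached by 5 members (37.4% of all genes), with Cxcl11 in addition, and groups did not overlap for 6, all but Cxcl9 (55.7%). The median over the 7 was 0.91, beside -0.21 over all genes and -0.05 with median-of-ratios scaling. This comparison shares the BF10 libraries with the others, and Cxcr3 passed the filter only through the IL-10-Fc and BF10 libraries. The departure of BF10 from additivity, which is its log2 effect less those of aCSF1R and IL-10-Fc, all against Ctrl-IgG, had 0 of the 7 called and 1 of all genes (0.00632%). An unadjusted limma p below 0.05 was reached by Cxcl9, at -1.59 (SE 0.662, unadjusted p = 0.0358, adjusted p = 1), and by Cxcr3, at 0.79 (SE 0.356, unadjusted p = 0.0477, adjusted p = 1), beside 2.61% of all genes.

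**Figure D4:**
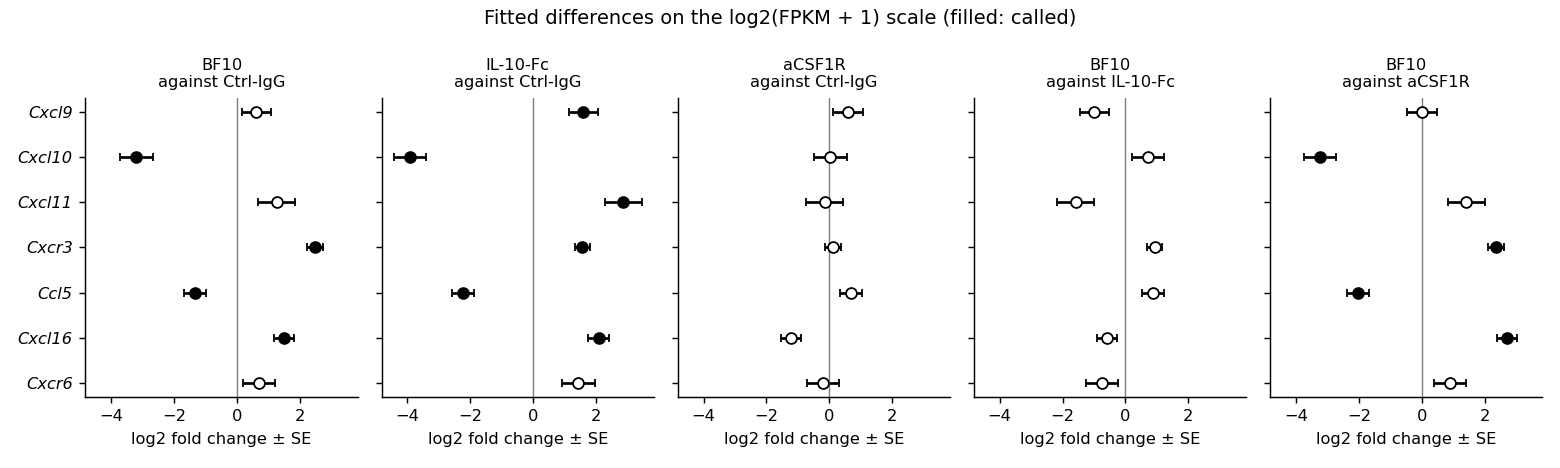
Log2(FPKM + 1) difference of each of the 7 genes in the treatment comparisons, with bars of 1 standard error from the limma fit and filled points for genes called. Cxcl10 and Ccl5 lie below 0 and Cxcr3 and Cxcl16 above 0 in IL-10-Fc or BF10 against Ctrl-IgG and in BF10 against aCSF1R. No gene is called in aCSF1R against Ctrl-IgG or BF10 against IL-10-Fc.

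Interferon gamma, the classical inducer of the CXCR3 ligands, had a low transcript level in all groups. Ifng was 2.57, 2.18 and 1.69 FPKM in Ctrl-IgG, 2.24, 1.51 and 2.02 FPKM after aCSF1R, 2.12, 2.46 and 0.89 FPKM in IL-10-Fc, and 1.58, 1.20 and 2.07 FPKM in BF10. The groups overlapped, and the log2 difference from Ctrl-IgG was -0.27 in BF10 (SE 0.261, adjusted p = 0.506) and -0.19 in IL-10-Fc (SE 0.261, adjusted p = 0.581). Among the 11 genes of interferon gamma and its signalling, 3 were called higher and 0 lower in each of these comparisons, beside 11.8% and 10.1% of all genes called higher. They included Jak2, a receptor-bound kinase of the pathway (2.40 in BF10 and 2.72 in IL-10-Fc), and Ciita, the activator of MHC class II genes (2.82 and 1.99). Irf1, a transcription factor induced by interferon gamma, differed by -0.14 (adjusted p = 0.75) and -0.55 (adjusted p = 0.131). The list median was 0.42 in BF10 and -0.00156 in IL-10-Fc, beside -0.12 and -0.39 over all genes.

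The interferon-induced GTPases, which Cxcl9 and Cxcl10 usually accompany, were called at a share near or below that of all genes in both comparisons, with 1 of 10 in BF10 (24.9% of all genes) and 3 of 10 in IL-10-Fc (33.7%). Gbp4 was called higher in BF10 (2.28, adjusted p = 0.000495) and in IL-10-Fc (2.90), Gbp7 higher in IL-10-Fc (0.80), and Irgm1 lower in IL-10-Fc (-0.90). The list median was 0.16 in BF10 and 0.24 in IL-10-Fc.

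Proteins that process these chemokines made a list of 3. Adam10, the protease that sheds CXCL16, rose by 0.84 in BF10 (adjusted p = 0.015), and Dpp4, the peptidase that trims CXCR3 ligands, by 1.28 (adjusted p = 0.0273). In IL-10-Fc 0 of 3 were called (33.7% of all genes), with Adam10 at 0.46, Dpp4 at 0.93 and Adam17, a related sheddase, at -1.27 (unadjusted p = 0.0189, limma adjusted p = 0.0539). Adam17 differed by -0.57 in BF10 (adjusted p = 0.424). Dpp4 was at 1 FPKM or more in 2 of the Ctrl-IgG and aCSF1R libraries and passed the filter through the others. The list median was 0.84 in BF10 and 0.46 in IL-10-Fc. Among the other receptors of the chemokines, 4 of 6 passed the filter. Ackr3, a scavenging receptor that binds CXCL11, rose in BF10 (2.20, adjusted p = 0.00169) and in IL-10-Fc (2.44), and Ccr1, a receptor of CCL5, in IL-10-Fc (1.92, adjusted p = 0.0289). Of all genes, 11.8% were called higher in BF10 and 10.1% in IL-10-Fc. The median over the 4 was 0.91 in BF10 and 1.20 in IL-10-Fc.

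Of 19 genes of other lymphocyte chemokine axes, 15 passed the filter. In BF10, 5 were called higher (11.8% of all genes) and 1 lower (13.2%): Cxcl13, the B cell attractant (4.13), Cx3cr1 (2.44), Cxcl12 (2.34) and its receptor Cxcr4 (1.24), Ccl17 (1.44), and Ccl4, a CC chemokine like Ccl5 (-1.24). Cx3cr1 was at most 0.67 FPKM in Ctrl-IgG and aCSF1R and passed the filter only through the IL-10-Fc and BF10 libraries. In IL-10-Fc, Ccl8 (2.19), the monocyte receptor Ccr2 (1.82) and Ccl17 (1.61) were called higher (10.1% of all genes) and Ccl4 (-1.0) lower (23.6%). The list median was 1.24 in BF10 and 0.83 in IL-10-Fc. B and plasma cell genes, whose cells answer to Cxcl13, summed to 20.1, 242 and 306 FPKM in BF10, beside 2.49 to 4.63 FPKM in Ctrl-IgG, 3.84 to 5.21 FPKM in aCSF1R and 3.01 to 53.3 FPKM in IL-10-Fc. Their part in the Cxcl13 difference was not tested.

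Several effector genes of T and NK cells were lower on the side where Cxcr3 was higher. Of 10 T effector and residence genes tested, 4 were called lower in BF10 (13.2% of all genes) and 6 in IL-10-Fc (23.6%), and 0 higher in either. Eomes, a transcription factor of cytotoxic lymphocytes, fell by 1.86 in BF10 (adjusted p = 0.000208) and 2.44 in IL-10-Fc. The cytotoxic granule genes Gzmb (-2.28 and -2.87) and Prf1 (-2.24 and -3.32) were called in both. Il15 was called in BF10 (-1.18), and Gzma (-2.79), Nkg7 (-1.57) and Il2rb (-2.03) in IL-10-Fc. Eomes passed the filter through the Ctrl-IgG and aCSF1R libraries, with 1 other library at 1 FPKM or more. The part of NK cells in these differences was not tested. The list median was -1.05 in BF10 and -1.80 in IL-10-Fc. In aCSF1R against Ctrl-IgG and in BF10 against IL-10-Fc, 0 genes of any of these lists were called, beside 0% and 0.0126% of all genes.

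The remaining marker lists were summed to show what else the tumour pieces held. Fibroblast genes summed to 167 to 617 FPKM in Ctrl-IgG, 484 to 591 FPKM in aCSF1R, 1026 to 2329 FPKM in IL-10-Fc and 1543 to 1893 FPKM in BF10, and 5 of 7 were called higher in each of the latter 2 against Ctrl-IgG (10.1% and 11.8% of all genes). Keratinocyte genes reached 1373 to 1723 FPKM in Ctrl-IgG replicate 3 and aCSF1R replicates 1 and 2 and 2.31 to 36.7 FPKM in the other libraries. Skeletal muscle genes were 657 to 1071 FPKM in those same 3 libraries and 7.05 to 104 FPKM elsewhere. Dendritic cell genes summed to 8.66 to 27.0 FPKM over all libraries, endothelial genes to 26.04 to 76.8 FPKM, salivary gland genes to 3.81 to 7.99 FPKM, and erythrocyte genes to 124 to 915 FPKM. Adipocyte genes were 42.6 to 64.2 FPKM in Ctrl-IgG, 49.6 to 56.8 FPKM in aCSF1R and 228 to 481 FPKM in BF10, and 40.3 to 581 FPKM in IL-10-Fc.

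Within groups the 7 genes did not vary as 1 unit. Deviations from the group means over the 12 libraries, in which all genes share the library's mitochondrial share and FPKM sum, ran together for Cxcl11 and Cxcr6 (Pearson r 0.971), Cxcl9 and Cxcr6 (0.889), Cxcl9 and Cxcl11 (0.877) and Cxcl9 and Cxcl16 (0.854). Cxcr3 ran against these genes, at -0.772 with Cxcl9 and -0.705 with Cxcl11. Cxcl10 ran with Ccl5 (0.704) and with none of the other members (-0.0353 to 0.133). Most of the Cxcl10 deviation came from BF10 replicates 2 and 3, at 26.9 and 178 FPKM, and replicate 3 is the library with Rhox5 and Eif2s3y transcripts. These values are descriptions over 12 libraries and carry no test.

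The genes of most alike deviation were looked up among 9308 genes whose mean was 5 FPKM or more. For Cxcl9 they were Ubd (Pearson r 0.968), the complement gene C1qc of macrophages (0.963) and Tlr7 (0.951). For Cxcr3 they were Tbccd1 (0.966), Ciita (0.965) and Wdr76 (0.959), and for Cxcl16 Rnd3 (0.977), the cholesterol exporter gene Abca1 (0.971) and Sgpp1 (0.943). Cxcl10 was closest to Hoxd10 (0.953), Trim12a (0.942) and Fmr1nb (0.938), the last with a Spearman rho of only 0.473. Cxcl11 was closest to Dmrta2 (0.968), Tmem251 (0.967) and Ecrg4 (0.964), and Cxcr6 to Mettl23 (0.960), Brcc3 (0.958) and Ecrg4 (0.956). Ccl5 was closest to Fbxl6 (0.967), Mcrip2 (0.935) and Bri3bp (0.894).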

How the data were processed

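RNA of tumour tissue was sequenced in 12 libraries, 3 for each of 4 treatments, as grouped by the treatment named in the labels. Replicate numbers follow the sample order and only name libraries. Per the labels, stranded mRNA libraries (TruSeq) were sequenced on a NextSeq instrument. The submitters' processing notes name STAR 2.7.5a, RSEM 1.3.3, DESeq2 1.30.0 and the build GRCm38. The authors deposited FPKM per gene and library, with 2 decimals and without scaling across libraries. The authors also deposited 4 DESeq2 comparison tables (fold changes, standard errors and p-values), which were not used.

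Genes reaching 1 FPKM in 3 or more libraries (15813 of 55401) were tested as log2(FPKM + 1) with limma 3.58.1 (lmFit, contrasts.fit, eBayes with trend) in R 4.3.3, all 12 libraries in one fit without covariates, tested on simulated data first. P-values were two-sided and adjusted by Benjamini-Hochberg over all genes tested. A fold on this scale understates the change of low genes. FPKM hold no counts, so no count model was fitted and no counting interval is given. Positions came from GENCODE M21, which held 99.5% of the gene identifiers, and promoter sequences from RefSeq.

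The 7 genes, the pathway and marker lists, the split by mitochondrial share and the naming rule (members, list genes, and the 3 genes of most alike deviation per member, without predicted genes, pseudogenes and receptor segments) were chosen with earlier results of these data known. The T cell level was the mean log2(FPKM + 1) over its list. Alternatives changed the pseudocount to 0.1, the filter, the scaling (TPM, median-of-ratios), the groups fitted, and the covariates (FPKM sum, or the first title number of at most 4 against at least 5), and left out each library in turn. No 2 libraries held identical values. Values of some genes in the pathway lists are not reported here, although the genes are in the lists' counts and medians.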

Additional observations from a re-analysis of the deposited data

How the results depend on the processing

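The count of members called in BF10 against Ctrl-IgG was 4 (24.9% of all genes), and 7 with the FPKM sum as a covariate, which added Cxcl9 (0.69), Cxcl11 (1.38) and Cxcr6 (0.79). Shares of all genes called are not given for the covariate, title number, left-out library and low mitochondrial settings. Counts under these settings are therefore not results about the members. Leaving out 1 library at a time gave 3 to 4 members called in that comparison, 5 to 7 in IL-10-Fc against Ctrl-IgG, 4 in BF10 against aCSF1R and 0 in the others. A term for the first title number gave 6 in BF10 against Ctrl-IgG. The 8 libraries of low mitochondrial share, an alternative chosen after seeing the data, gave 5 in each of the 3 comparisons across sides, with Cxcl10, Cxcl11, Cxcr3, Ccl5 and Cxcl16; their only IL-10-Fc library is assumed to vary like the others. Cxcr6 was called in IL-10-Fc with TPM (1.35, adjusted p = 0.0495), median-of-ratios scaling (1.85, 0.0458), the FPKM sum (0.79, 0.0223) and the title term (1.44, 0.00487), and Cxcl9 was lost with the 2 groups alone (1.60, 0.0842).

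Differences that changed sign were small and not called. In aCSF1R against Ctrl-IgG these were Cxcl10 (-0.11 with median-of-ratios scaling, -0.048 to 0.12 leaving out 1 library), Cxcl11 (0.22 with the FPKM sum, 0.038 with low mitochondrial share, -0.27 to 0.038 leaving out 1 library) and Cxcr6 (0.11 with the FPKM sum). In BF10 against IL-10-Fc they were Cxcl10 (-0.00043 to 1.34 leaving out 1 library) and Cxcr6 (0.14 with low mitochondrial share). In BF10 against aCSF1R it was Cxcl9 (-0.059 with TPM, -0.18 with the FPKM sum, -0.28 with low mitochondrial share, -0.28 to 0.27 leaving out 1 library). In the departure they were Cxcl10 (-0.032 to 1.31 leaving out 1 library), Ccl5 (-0.085 with median-of-ratios scaling, -0.17 to 0.43 leaving out 1 library) and Cxcr6 (0.18 with low mitochondrial share). Cxcr3 relative to the Cd3 genes alone was -0.005 in aCSF1R minus Ctrl-IgG. The cause was not tested. No paired analysis was possible because the replicate numbers only name libraries. FPKM without counts leave the precision of low values such as Cxcr3 in Ctrl-IgG unknown.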
